A study of Homo sapiens with 6 samples.

Results

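The replication-dependent histone genes lie in tandem clusters, and the accessibility of those clusters was followed in a myeloma line with and without KDM6A. The set was defined by symbol and position: protein-coding genes whose symbols start with H1-, H2AC, H2BC, H3C or H4C in the RefSeq gene table of GRCh38, on chromosome 6 between 25.9 and 28.0 Mb and on chromosome 1 between 149.7 and 150.0 Mb and between 228.4 and 228.6 Mb. This gave 66 of 20037 protein-coding genes, namely 6 H1, 16 H2A, 17 H2B, 13 H3 and 14 H4 genes. The same 3 windows held 166 of the 75701 regions obtained by merging the 6 peak lists, and 34 of these lay at a histone gene end. Of the 166 regions 83 were called in all 6 lists, where the share over all regions was 31.2%. The windows differed in this: 68 of 105 regions on chromosome 6, 11 of 53 in the window from 149.7 Mb and 4 of 8 in that from 228.4 Mb.

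ATAC-seq, which uses the Tn5 transposase to tag accessible DNA, was carried out on ARP1, a human multiple myeloma cell line derived from malignant plasma cells. The groups were 3 libraries of KDM6A knockout (KO) cells and 3 libraries of wild-type (WT) cells, with no other treatment given in the labels. KDM6A is the demethylase of a repressive lysine mark on histone H3, and the submitters asked how it regulates DNA accessibility. The labels call the libraries biological replicates but do not say how the knockout was made, whether it is 1 clone, or whether the cultures were separate, so that p-values here measure the spread between these 6 libraries and may cover technical spread only.

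Replication-dependent histone genes supply the core histones H2A, H2B, H3 and H4 and the linker histone H1 while DNA is being copied. Their transcripts carry no poly(A) tail but a stem-loop bound by SLBP, and NPAT, which is phosphorylated by cyclin E and CDK2, drives their transcription from nuclear bodies that form at the clusters. Many H2A and H2B genes stand head to head and share the DNA between their starts. The proteins are nearly the same within a family, so that many genes contribute to 1 product.

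The sequences below show what lies at the starts the results turn on: a divergent H2A and H2B promoter from the strongest chromosome 6 group, an H4 and an H3 promoter from the strongest chromosome 1 group, the start of the H4 gene with the weakest peak, and an H2B and a testis H1 start without a peak in any list. Peak labels refer to windows of 1 kb around the gene ends. The H4C4 start itself lay in a peak in only some lists, and the median summit was 171.5 bp downstream of it. Each runs 5′ to 3′ on the gene's own strand from 250 bases before the start to 50 after it, taken from RefSeq on GRCh38.p14. Capitals mark matches, on either strand, to TATAAA (the TATA box), CCAAT (the CCAAT box), ATTTGCAT (the octamer bound by OCT1), GGTCCG (the end of the H4 site II element, bound by HINFP) and TTTGGCGC (an E2F site). Adjoining capitals can belong to matches that overlap, as with TATAAA and its reverse complement.
H2BC11, chr6:27132746-27133045, minus strand, peak in all 6 lists: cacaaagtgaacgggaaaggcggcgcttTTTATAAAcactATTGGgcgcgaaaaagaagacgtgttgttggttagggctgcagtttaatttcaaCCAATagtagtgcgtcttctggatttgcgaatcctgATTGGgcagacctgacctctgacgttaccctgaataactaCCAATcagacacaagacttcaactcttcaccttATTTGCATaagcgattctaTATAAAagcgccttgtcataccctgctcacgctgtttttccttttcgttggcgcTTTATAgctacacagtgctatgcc
H4C14, chr1:149832407-149832706, plus strand, peak in all 6 lists: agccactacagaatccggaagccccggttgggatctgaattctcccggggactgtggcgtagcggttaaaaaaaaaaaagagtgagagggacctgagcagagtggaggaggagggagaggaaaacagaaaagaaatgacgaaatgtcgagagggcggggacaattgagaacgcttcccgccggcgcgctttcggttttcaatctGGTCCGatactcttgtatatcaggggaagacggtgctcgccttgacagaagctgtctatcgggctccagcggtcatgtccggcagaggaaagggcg
H3C15, chr1:149852358-149852657, plus strand, peak in all 6 lists: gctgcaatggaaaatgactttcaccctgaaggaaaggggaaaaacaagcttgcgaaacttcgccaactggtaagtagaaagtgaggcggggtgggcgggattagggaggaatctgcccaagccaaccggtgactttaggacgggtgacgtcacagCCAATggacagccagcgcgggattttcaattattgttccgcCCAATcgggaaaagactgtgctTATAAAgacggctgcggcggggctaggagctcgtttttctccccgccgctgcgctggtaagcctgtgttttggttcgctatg
H4C4, chr6:26189063-26189362, minus strand, weak peak in all 6 lists: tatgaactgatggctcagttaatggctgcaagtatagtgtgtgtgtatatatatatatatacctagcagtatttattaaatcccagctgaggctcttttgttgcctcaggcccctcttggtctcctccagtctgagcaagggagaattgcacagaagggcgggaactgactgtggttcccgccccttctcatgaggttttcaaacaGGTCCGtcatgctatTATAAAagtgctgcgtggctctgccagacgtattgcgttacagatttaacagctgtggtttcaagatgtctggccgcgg
H2BC6, chr6:26183511-26183810, plus strand, no peak in any list: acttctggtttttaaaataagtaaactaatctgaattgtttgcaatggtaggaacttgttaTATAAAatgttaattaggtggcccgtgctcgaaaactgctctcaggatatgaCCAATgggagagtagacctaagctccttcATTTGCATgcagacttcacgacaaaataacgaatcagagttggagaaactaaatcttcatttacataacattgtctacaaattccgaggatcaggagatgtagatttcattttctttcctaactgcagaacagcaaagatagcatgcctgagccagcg
H1-6, chr6:26108086-26108385, minus strand, no peak in any list: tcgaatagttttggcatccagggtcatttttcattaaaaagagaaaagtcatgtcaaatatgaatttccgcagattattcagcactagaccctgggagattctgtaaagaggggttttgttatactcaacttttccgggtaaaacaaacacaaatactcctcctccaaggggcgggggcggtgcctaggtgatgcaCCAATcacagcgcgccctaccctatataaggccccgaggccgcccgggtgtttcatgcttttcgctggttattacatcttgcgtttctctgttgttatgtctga

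Promoter sequences were matched for 61 of the 66 genes, and the motifs divided by family. The octamer was found in 13 of 17 H2B promoters and 10 of 15 H2A promoters, many of which are the same DNA read from either strand, against 1 of 11 H3 promoters and none of the 6 H1 and 12 H4 promoters. The H3 promoter with the octamer was that of H3C4, whose annotated start is also that of H2AC7. GGTCCG was found in 11 of 12 H4 promoters and in 3 promoters of the other families together. In the set as a whole TATAAA was found in 63.9% of promoters, CCAAT in 85.2%, the octamer in 39.3% and GGTCCG in 23.0%, where the shares over all 15842 promoters of the table were 9.75%, 36.4%, 1.72% and 14.5%. TTTGGCGC was in none of the 61 and in 0.884% of all promoters. A match is a string of letters and not a measured site.

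Only peak lists were analysed, with a fold over background and a −log10 p for every peak as the authors' peak caller gave them, and read counts were not used here, so that the depth behind a value is unknown. The lists held 33055 to 37314 peaks in the KO and 54443 to 56048 in the WT, and the weakest listed fold was 3.09 to 3.31 in the KO and 2.72 to 2.92 in the WT. A weak region therefore entered a KO list less easily, and the unequal length of the lists and the genotype cannot be told apart in any presence call. KDM6A itself had a peak at a gene end in 3 of 3 KO and 3 of 3 WT lists, which does not report on an edit within the gene. Of 10 plasma cell genes 7 (among them SDC1, IRF4 and XBP1) were called at a gene end in all 6 lists, JCHAIN was called in the 3 WT lists alone, and PRDM1 and SLAMF7 in some lists. Among B cell genes BACH2, BCL6 and CR2 were called in all 6 lists, EBF1 and PAX5 in 2 KO and 3 WT lists, and MS4A1 and CD22 in none. All 4 myeloid genes and the red cell gene HBB had no peak, while the red cell gene HBA1 was called in 3 KO and 2 WT lists and 3 of 6 T and NK cell genes (CD3E, CD8A and NCAM1) were called in all 6.

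Most histone genes were accessible at a gene end in every library, and none was called in all 3 lists of 1 genotype and 0 of the other. A gene was counted as called when a peak overlapped a window of 1 kb on either side of its start or its end. By that rule 49 of 66 genes were called in all 6 lists (54.7% of all protein-coding genes were), 14 in no list (35.3% of all genes), and 3 in some lists. WT-only genes, called in 3 of 3 WT and 0 of 3 KO lists, numbered 0 (1.75% of all genes called in the 3 WT lists), and KO-only genes, by the converse rule, also 0 (0.0453% of those called in the 3 KO lists). The number called per list was 50, 49 and 49 in the KO and 52, 50 and 52 in the WT. When only the base of the start itself was asked to lie in a peak, a check added after the data were seen, 39 of the 61 genes with a known start were called in all 6 lists, where the share over all starts was 50.8%.

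The 5 clusters differed in how complete they were. Cluster borders were set wherever neighbouring members lay more than 500 kb from each other. The chromosome 1 q21 cluster was called in all 6 lists at 11 of 11 genes, and the middle chromosome 6 group at 5 of 5. The proximal chromosome 6 group, the largest, was called in all 6 lists at 21 of 32 genes, and the distal group at 12 of 16. Neither H2AC25 nor H2BC26, the divergent pair of members in the chromosome 1 q42 cluster, had a peak in any list. H3-4, a histone gene of the same window whose symbol falls outside the rule, had none either. By family, the genes called in all 6 lists were 3 of 6 for H1, 13 of 16 for H2A, 13 of 17 for H2B, 9 of 13 for H3 and 11 of 14 for H4.

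The 14 members without a peak lay in the proximal (9 genes), distal (3 genes) and q42 (2 genes) clusters. In addition to H2AC25 and H2BC26 they were the linker histone genes H1-1, H1-5 and H1-6, the H2B genes H2BC3 and H2BC6, the H3 genes H3C3, H3C6, H3C8 and H3C11, and the H4 genes H4C6, H4C7 and H4C13. H1-6 (chr6:26107412-26108135) encodes the testis linker histone. The testis genes H2AC1 and H2BC1 lie just below the chromosome 6 window, are not among the 66, and had no peak in any list either. H2BC6 (chr6:26183761-26184230) had none, and its promoter shown above holds matches to the octamer, to CCAAT and, far upstream of the start, to TATAAA. Among the 13 genes without a peak that had a promoter sequence TATAAA was found in 46.2%, CCAAT in 92.3% and the octamer in 15.4%, against 68.9%, 82.2% and 42.2% of the 45 genes called in all 6 lists that had one. The uncalled and called genes differ in family make-up, and the octamer was found mainly in H2A and H2B promoters. These shares therefore do not show that a motif goes with a call, and no comparison within a family was made. The median G and C content was 46.0% in the promoters of genes without a peak and 43.0% in the called promoters, and 62.7% over all promoters.

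The 3 genes called in some lists had folds of 3.35 to 5.59 where called. The peak shared by H2BC8 and H2AC8 (chr6:26216975-26217536, over H2AC8), an H2B and H2A pair, was absent from all 3 KO lists and had a fold of 4.06 in WT replicate 1 and 5.24 in WT replicate 3, with no call in WT replicate 2. The H2AC16 peak (chr6:27865139-27865772) had a fold of 3.91 in KO replicate 1 and no call in KO replicates 2 and 3, against 4.06, 5.59 and 3.35 in the 3 WT lists. Both peaks lay below the 40th list percentile in each list that held them, and the WT lists reach down to weaker folds than the KO lists. H2AC16 would count as WT-only without KO replicate 1 (1 gene), and H2BC8 and H2AC8 without WT replicate 2 (2 genes).

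**Figure D1:**
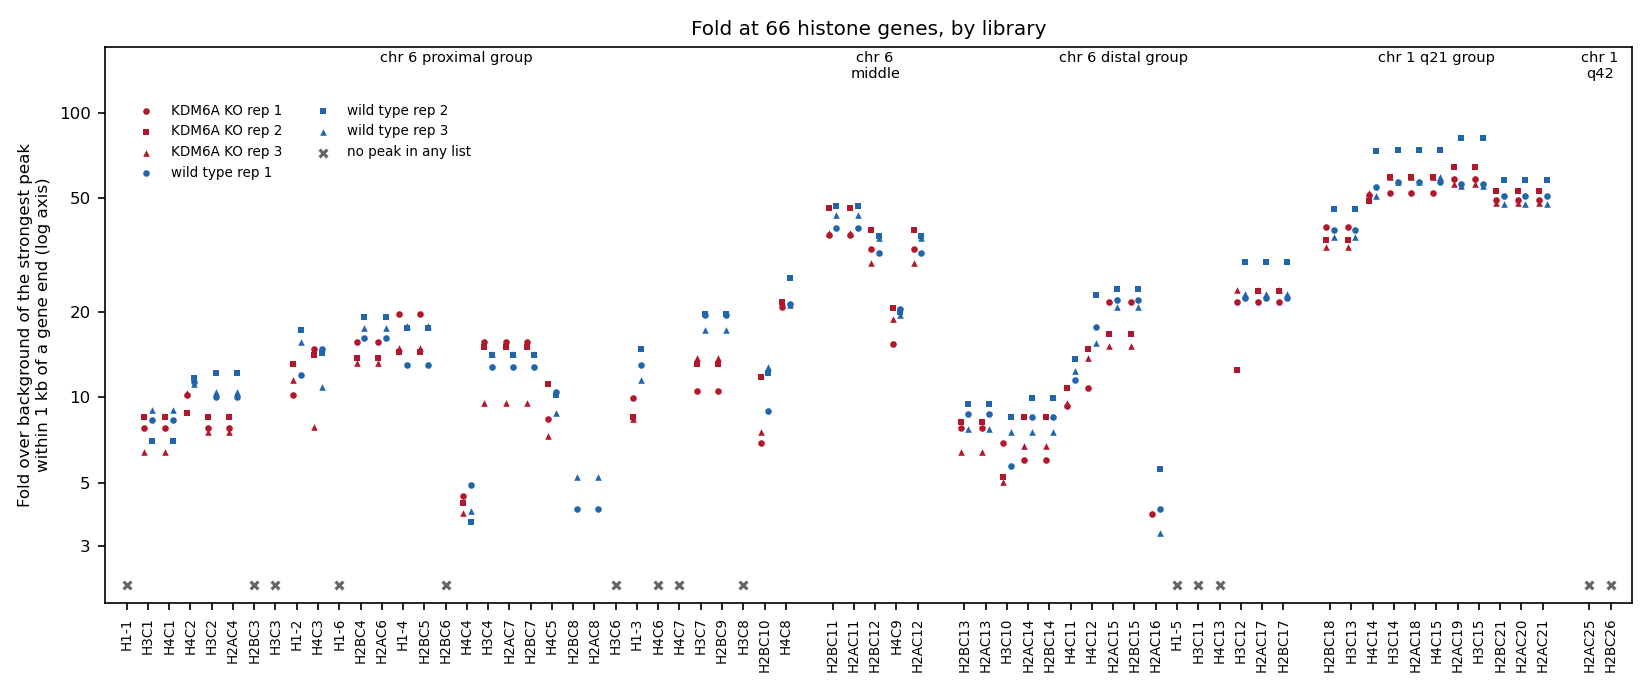
Fold over background (log axis) of the strongest peak within 1 kb of either end of each of the 66 histone genes, in genome order within each cluster; each symbol is 1 library, KO left of WT, and a cross marks the 14 genes with no peak in any list. The chromosome 1 q21 genes lie highest, H4C4 is the weakest gene with a peak in every list, and neighbouring genes with identical values share a peak.

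Fold varied widely between clusters in every library. Each fold is the authors' own value relative to its library's background, and lists of different length and depth cannot be set against each other by fold to show a change. The median fold over the called genes of the chromosome 1 q21 cluster was 51.5, 53.1 and 52.2 in the KO lists and 54.9, 73.4 and 50.9 in the WT lists. In the middle chromosome 6 group it was 33.1, 38.7 and 29.7 in the KO and 32.2, 36.9 and 36.3 in the WT. The proximal and distal chromosome 6 groups were lower in every list, with medians of 9.54 to 13.1 and 9.33 to 11.6 in the KO, and 12.8 to 14.1 and 11.5 to 13.6 in the WT. Other protein-coding genes with a peak had medians of 11.8 to 13.1 in the KO and 13.0 to 16.2 in the WT. Thus the q21 and middle groups stood above the typical gene in all 6 lists, and the proximal and distal groups stood close to or below it.

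The highest mean fold in the KO and in the WT was that of the peak shared by H2AC19 and H3C15, an H2A and an H3 gene of the q21 cluster (chr1:149851061-149851594 and chr1:149852608-149853125), with its summit just upstream of the H2AC19 start. It had a fold of 58.4, 64.6 and 56.1 in the KO and 56.4, 81.4 and 55.1 in the WT, or 59.7 ± 4.38 and 64.3 ± 14.8 (mean ± SD, n = 3 each). The groups overlapped, and WT replicate 2 was above the other libraries. The peak shared by H3C14 and H2AC18 was close to it and stood higher in KO replicate 3 and in WT replicates 1 and 3, at 52.4, 59.7 and 59.2 in the KO and 57.2, 74.1 and 57.0 in the WT. The H4 gene H4C14 (chr1:149832657-149833052), whose promoter is printed above, had 51.5, 48.8 and 52.2 in the KO and 54.9, 73.4 and 50.9 in the WT. H2BC21, a replication-dependent H2B gene that can also give a polyadenylated transcript, shared its peak with H2AC20 and H2AC21, at 49.4, 53.1 and 48.0 in the KO and 50.8, 58.1 and 47.8 in the WT. The lowest folds within the q21 cluster were those of H2BC18 and H3C13, at 39.7, 35.7 and 33.7 in the KO and 38.7, 45.9 and 36.5 in the WT. Even these lay above the 98th list percentile in each library.

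Several q21 genes are near-identical copies, and their values are uncertain one by one. The promoter windows of H2AC18 and H2AC19 matched at 299 of 299 bases, those of H3C14 and H3C15 at 296 of 296 and those of H4C14 and H4C15 at 300 of 300, allowing a shift of up to 20 bases. How reads that fit both copies were placed is not given in the sources used here. The chromosome 6 genes H4C11 and H4C12 matched at 295 of 300 bases.

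In the middle chromosome 6 group the divergent pair H2BC11 and H2AC11 (chr6:27132316-27132795 and chr6:27133043-27133535) led, with a shared peak of fold 37.3, 46.2 and 37.9 in the KO and 39.3, 46.9 and 43.8 in the WT. H4C9, an H4 gene of the same group, was the lowest there, at 15.3, 20.7 and 18.8 in the KO and 20.5, 19.9 and 19.5 in the WT. The KO and WT values overlapped for the pair and for H4C9.

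In the proximal group the H4 gene H4C8 (chr6:26285126-26285534) was highest, at 20.8, 21.6 and 21.6 in the KO and 21.4, 26.2 and 21.2 in the WT. Another H4 gene, H4C4 (chr6:26188710-26189112), was the lowest gene of the whole set that was called in every list, at 4.51, 4.26 and 3.93 in the KO and 4.91, 3.65 and 3.98 in the WT. H4C8 stood above H4C4 in every library, and both promoters hold GGTCCG. Of the linker histones, H1-4 had the highest mean list percentile, but its peak had its summit 1709 bp into the direction of transcription from the H1-4 start and 83 bp before the start of the neighbouring H2BC5. That peak had a fold of 19.6, 14.4 and 14.9 in the KO and 13.0, 17.5 and 17.8 in the WT. H1-3, the lowest linker histone gene with a peak in all lists, had 9.93, 8.52 and 8.42 in the KO and 13.0, 14.8 and 11.5 in the WT, where the folds of the lists did not overlap but the ranks within a common set did (limma adjusted p = 0.519).

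The distal group was led by H2AC17 and H2BC17, a divergent pair with a shared peak of fold 21.7, 23.6 and 23.9 in the KO and 22.4, 29.9 and 23.1 in the WT. H3C10, an H3 gene, was lowest, at 6.92, 5.25 and 5.05 in the KO and 5.77, 8.51 and 7.54 in the WT. Its neighbours H2AC14 and H2BC14, the lowest of their families among the genes called in every list, shared a peak at 6.02, 8.52 and 6.73 in the KO and 8.54, 9.96 and 7.54 in the WT. The groups overlapped for all 3 of these peaks.

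Neighbouring genes often shared 1 peak, so the 66 genes are not 66 measurements. Of the 34 regions at histone gene ends, 15 held 1 gene, 15 held 2 and 4 held 3. The 32 regions called in all 6 lists had a median width of 2830 bp, where that of gene-end regions over the genome was 1771 bp. The 7 on chromosome 1 were wider (median 6325 bp) than the 25 on chromosome 6 (median 2388 bp). Promoter windows of 11 divergent pairs overlapped, 10 of them H2A and H2B pairs, with starts 194 to 248 bp from each other. The remaining pair, H3C4 and H2BC7, has the same starts as the pair H2AC7 and H2BC7. In 9 of the 11 pairs both genes were called in all 6 lists, H2BC8 and H2AC8 were called in the same 2 WT lists, and H2AC25 and H2BC26 in none.

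Measured from each gene's own start, the median position of the strongest peak's summit differed between the families. For the 45 genes with a known start and a peak in all 6 lists, the median summit lay 24.0 bp downstream of the start and 66.7% of summits were within 250 bp of it, against −29.5 bp (upstream) and 70.3% for 9054 other genes. The median was −62.5 bp for H2A (12 genes) and −164.5 bp for H2B (13 genes), both on the side where divergent partners face each other. For H3 (8 genes) the median was 34.2 bp and for H4 (9 genes) 190.5 bp, downstream of the start. The H3 values were widely spread, with quartiles at −499.6 and 591.5 bp and 3 of 8 summits within 250 bp. A common position for H3 is therefore not shown. The 3 H1 genes had a median of 804 bp. Farther summits mostly belonged to genes that share a region with a stronger neighbour, as with H3C14 and H3C15, whose summits lay at −1616 and −1626.5 bp, near the H2A starts next to them. H4C15 is annotated with a long transcript, and its strongest peak, at a median of 18335 bp from its start, was mostly that of H2AC18.

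**Figure D2:**
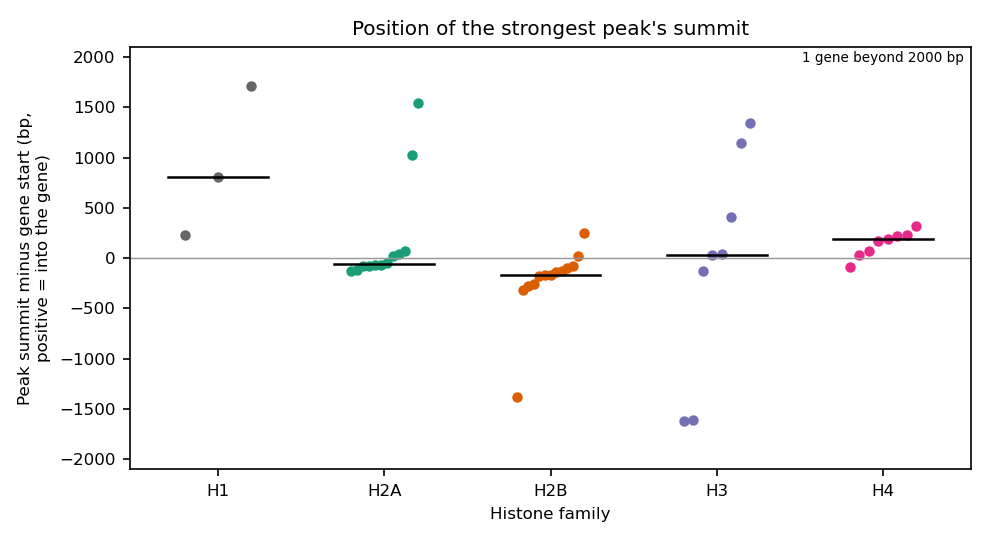
Distance from gene start to the summit of the strongest gene-end peak, in bp (positive values lie into the gene), for the 45 histone genes with a known start and a peak in all 6 lists; each point is the median over 6 libraries for 1 gene and the line is the family median. H2A and H2B points gather just upstream of the start, H4 points mostly downstream, and 1 gene (H4C15) lies beyond the axis.

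Rank was compared between genotypes within 1 common set of regions. Membership still depends on the shorter KO lists, since a region had to be called in all 6. The 23589 regions called in all 6 lists were ranked in each library by their strongest −log10 p, and normal scores of the ranks were fitted with limma, with Benjamini-Hochberg adjustment over all of them. By an adjusted p under 0.05, 963 regions (4.08%) were higher and 723 (3.06%) lower in the KO. None of the 32 histone gene regions passed in either direction, and none of the 83 regions of the 3 windows did. Without adjustment 1 of the 32 (3.12%) and 8 of the 83 (9.64%) had a p under 0.05, where 30.0% of all 23589 regions and 28.5% of gene-end regions did. The calls over all regions rest on few libraries: without WT replicate 1, 2 or 3 none was left, and without KO replicate 1, 2 or 3 there were 159, 224 and 604 higher and 213, 286 and 575 lower. Without KO replicate 3, 2 window regions away from histone genes passed towards lower ranks. The fit has little power for small shifts among regions of middle rank, the only ones shifted in a simulation of this comparison. Over 23589 regions it found 21% of 100 shifts of 1 normal score and 97% of 100 shifts of 2. For regions near the top, as most histone regions on chromosome 1, the power was not simulated.

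The histone region with the lowest p was not at a histone gene start. It lay at chr1:149781229-149782382, beside the far end of the long transcript annotated for H2BC18, and within the end windows of the non-histone genes FCGR1A, which encodes an Fc receptor and starts there, and LOC124904411. Its rank percentile was 36.9, 49.8 and 43.5 in the KO and 17.4, 26.8 and 25.4 in the WT, 20.2 percentile points apart in the mean (43.4 ± 6.42 and 23.2 ± 5.08, SD, n = 3 each). All KO libraries stood above all WT libraries, with an adjusted p of 0.0804 in limma, or 0.0367 when the weakest 25% of regions were left out. The exact permutation test (two-sided) gave p = 0.1, which is the lowest value open to 3 against 3 libraries. The start region of H2BC18, shared with H3C13, was at 99.2, 98.3 and 98.7 in the KO and 98.2, 98.1 and 97.7 in the WT.

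Among the chromosome 6 regions the differences at either extreme stayed below the threshold. The region of H1-4 and H2BC5 ranked at 90.6, 73.3 and 81.6 in the KO and 60.9, 68.7 and 77.9 in the WT, which overlapped (limma adjusted p = 0.233). H3C7 and H2BC9, an H3 and an H2B gene sharing a region (chr6:26249161-26253456), ranked at 61.4, 68.2 and 78.1 in the KO and 83.4, 75.4 and 76.1 in the WT, the widest difference towards a lower rank (−9.07 percentile points, limma adjusted p = 0.361). These groups overlapped too. H3C2 and H2AC4 shared the only histone region whose ranks were lower in every KO library than in every WT library, at 40.1, 39.3 and 40.9 in the KO and 42.2, 44.8 and 42.1 in the WT. That gap is small beside the spread at other regions (limma adjusted p = 0.774).

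Described as a set, the 32 histone gene regions were higher in mean rank in the KO at 24 and lower at 8, with a median difference of 1.04 percentile points (1.67 without KO replicate 2, 2.12 with lists of equal length and 0.448 when ranked by mean −log10 p). Over all 9684 gene-end regions 58.7% were higher in the KO and the median difference was 2.24 points. The KO and WT ranks did not overlap at 7 histone regions that were higher in the KO and at 1 that was lower. Over all gene-end regions 24.4% were separated in this way towards higher and 12.8% towards lower ranks, so that 7 of 32 lies near the background. On chromosome 1 the 7 regions had a median difference of 0.14 points, and all but the one at the far end of H2BC18 ranked above the 97th percentile in each library. On chromosome 6 the median difference over 25 regions was 2.42 points.

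**Figure D3:**
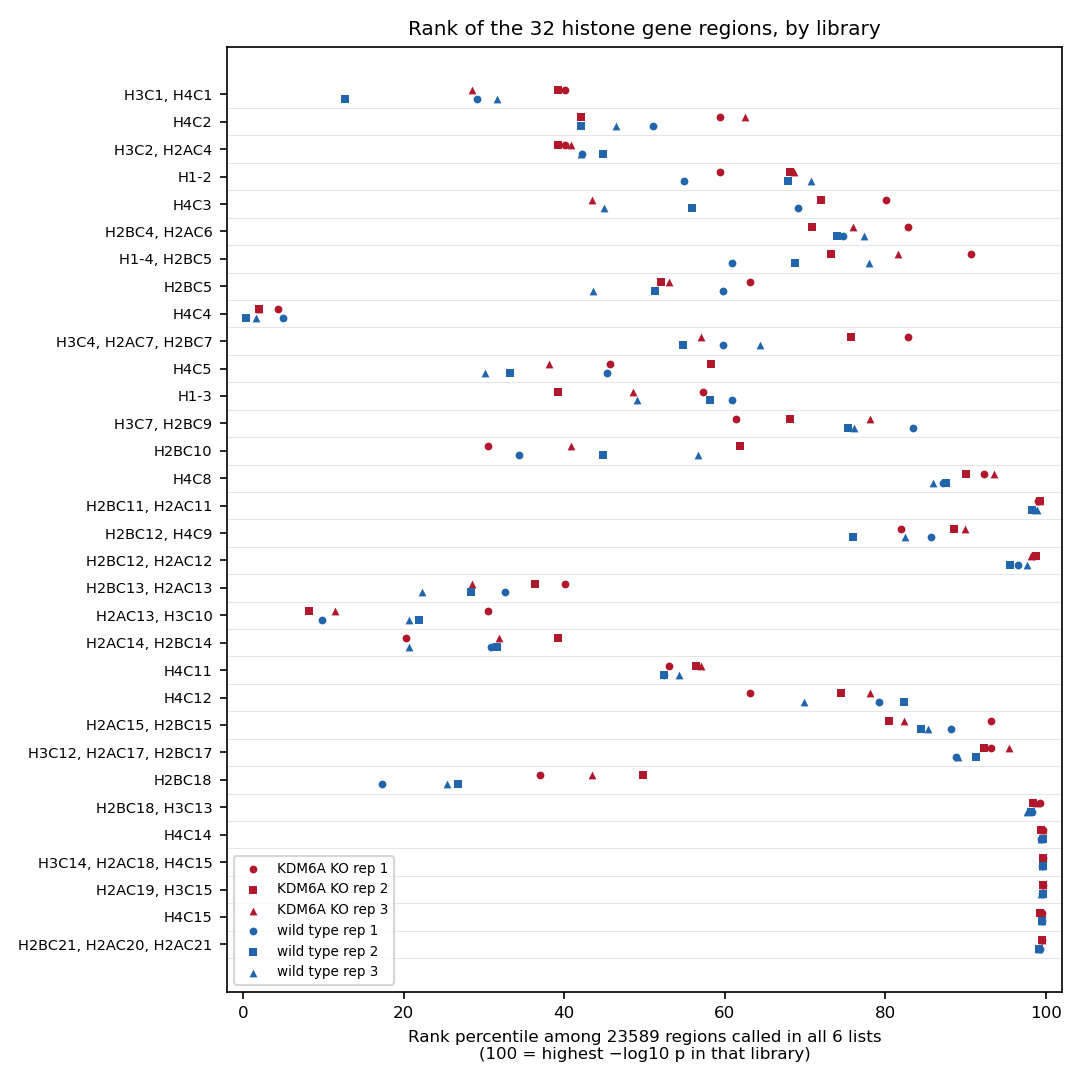
Rank percentile of the 32 histone gene regions among the 23589 regions called in all 6 lists (100 is the highest −log10 p), in genome order within chromosome 6 and then chromosome 1; each symbol is 1 library, KO above WT in each row. The start regions of chromosome 1 crowd near 100, H4C4 lies near 0, and the H2BC18 region at the far transcript end shows KO libraries at 36.9 to 49.8 and WT libraries at 17.4 to 26.8.

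Counts per list differed by kind of region, at the deposited list lengths. At histone gene ends 33, 32 and 32 regions were called in the KO and 34, 33 and 34 in the WT, so that the KO mean was 96.0% of the WT mean. Regions away from protein-coding gene ends that overlap a tRNA gene were called 28, 28 and 26 times in the KO and 29, 29 and 27 times in the WT (96.5%). Ends of other protein-coding genes gave 17, 18 and 19 in the KO and 20, 22 and 20 in the WT (87.1%). The remaining regions, away from protein-coding gene ends and without a tRNA gene, gave 28, 24 and 23 in the KO and 46, 46 and 48 in the WT, or 53.6%. The genome as a whole stood at 62.8% and its gene-end regions at 92.5%.

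List length moved with these counts. With each list cut to the 33055 peaks of highest −log10 p, the length of the shortest list, the KO mean was 103.2% of the WT mean at histone gene ends, 108.2% over tRNA genes and 106.2% for the remaining regions, with 28, 19 and 21 in the KO and 22, 21 and 21 in the WT. The direction for the 3 windows together was then higher in the KO (105.7%), where it was lower with the lists as deposited (79.4%, with 102.7 ± 3.06 regions in the KO and 129.3 ± 0.58 in the WT, SD, n = 3). At equal length the windows held 106, 92 and 98 regions in the KO and 94, 92 and 94 in the WT, which overlapped, with KO replicate 1 the highest. The genome stood at 96.2% under the same cut.

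**Figure D4:**
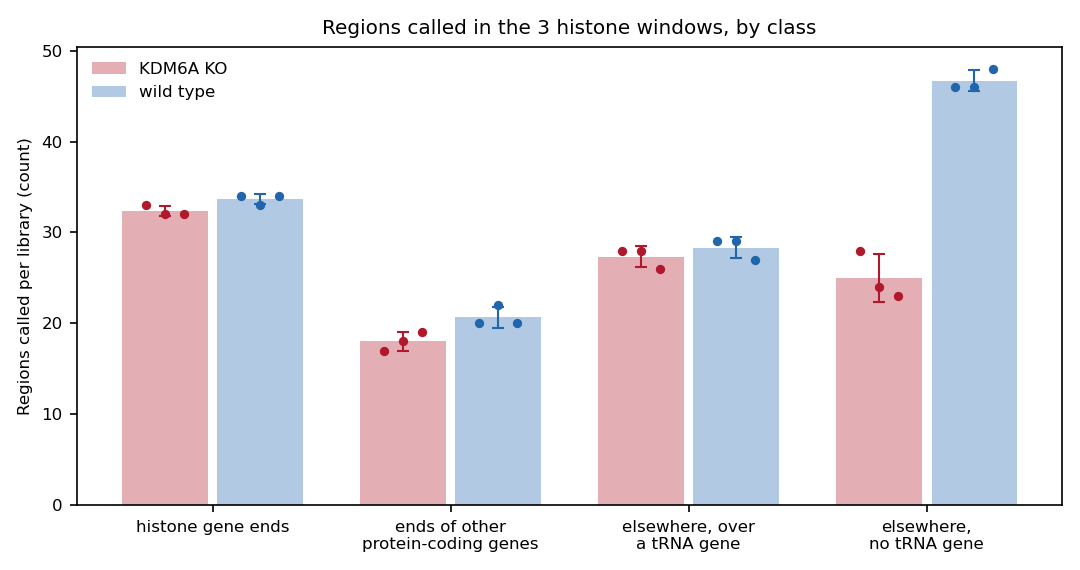
Number of merged regions of the 3 windows called per library, by class, with the lists at their deposited length; bars are means, error bars SD and points single libraries (n = 3 each), KO left of WT. The classes differ most in the last pair of bars, at a mean of 25 in the KO and 46.7 in the WT, a difference that lists of equal length do not show.

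The WT-only regions of the windows were few and weak. Of the 107 window regions called in all 3 WT lists 8 were WT-only (7.48%, where the share over the genome was 17.3%), and none was KO-only (0.39% over the genome). Of the 33 histone gene regions called in all 3 WT lists none was WT-only, which lies near the 2.64% of all gene-end regions. Away from protein-coding gene ends 7 of 55 were WT-only, where the genome had 22.6%. All 8 had mean WT folds of 3.03 to 5.50. They lay at chr1:149726592-149727770 over the pseudogene PDE4DIPP7, chr1:149937483-149938409 at an end shared by MTMR11 and OTUD7B, chr1:228471904-228473132, chr6:25971176-25971898 inside TRIM38, chr6:27120782-27121479, chr6:27161912-27162614 over the tRNA gene TRT-AGT6-1, chr6:27693797-27694608 over LINC01012, and chr6:27805141-27805822, the last close to H2BC13. The count was 13 without KO replicate 1, 13 without WT replicate 2 and 1 with lists of equal length.

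The 5 strongest regions away from protein-coding gene ends, by mean list percentile, were called in every library. The strongest, chr1:149706597-149714441, held the valine tRNA gene TRV-CAC1-7 and had a fold of 40.6, 57.4 and 47.7 in the KO and 64.3, 65.1 and 66.2 in the WT. A region within PRSS16, a serine protease gene of the chromosome 6 window (chr6:27250487-27253058), had 37.9, 40.3 and 43.8 in the KO and 51.9, 71.2 and 58.9 in the WT. The other three, at chr6:26955810-26957995 over GUSBP2 and LINC00240, chr6:26520249-26523154 over the leucine tRNA gene TRL-CAG1-7 and HCG11, and chr6:26358085-26362335 with no gene, averaged 25.9, 18.7 and 15.6 in the KO and 34.0, 22.1 and 25.7 in the WT. None passed the rank test.

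Most tRNA regions and other regions away from gene ends ranked lower in the KO, none past the limma threshold. Of the 24 tRNA regions called in all 6 lists 6 ranked higher in the KO, with a median difference of −5.81 percentile points. Of the 12 other regions away from gene ends none did, with a median of −7.60, while over all regions away from gene ends 43.3% were higher in the KO and the median was −2.18. The chromosome 6 window holds 100 tRNA genes of the table, of which 44 overlapped a region and 37 a region called in all 6 lists.

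The 3 windows held more peaks per Mb than the genome in every list. The q21 window had 83.3 to 93.3 peaks per Mb in the KO and 110.0 to 130.0 in the WT, and the chromosome 6 window 36.7 to 43.3 in the KO and 43.8 to 45.2 in the WT. The genome had 10.7 to 12.1 in the KO and 17.6 to 18.2 in the WT. High folds in the q21 window were not limited to histone genes: the median over 3 regions at other gene ends was 19.3, 22.0 and 23.6 in the KO and 29.5, 36.2 and 33.7 in the WT. Whether the neighbourhood plays a part in the histone values was not tested. Of the 28 other protein-coding genes of the windows 17 were called in all 6 lists, 3 in some and 8 in none, the histone gene H3-4 among these.

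Genes that act on histone transcription and mRNA were accessible in both genotypes. Of a list of 20, 19 were called in all 6 lists (54.7% of all protein-coding genes were), among them CDK2, CCNE1, CCNE2, E2F1 and POU2F1, which encodes OCT1. The exception, LSM10, part of the U7 particle that cleaves histone transcripts, was called in 2 KO and 3 WT lists. NPAT had a fold of 35.2, 41.6 and 34.0 in the KO and 43.4, 50.6 and 43.6 in the WT. These folds did not overlap, but folds from lists of different length do not show a change. SLBP had 23.2, 22.3 and 25.8 in the KO and 22.4, 26.2 and 23.9 in the WT, which overlapped. HINFP, the factor of H4 promoters, had 22.3, 28.8 and 23.0 in the KO and 22.4, 39.1 and 26.0 in the WT. CASP8AP2, a further factor of the histone locus bodies, had 10.8, 13.4 and 7.02 in the KO and 12.6, 14.3 and 16.3 in the WT. All 12 histone chaperone genes were called in all 6 lists, against the same 54.7%. Of 14 further histone genes outside the windows 11 were, among them H3-3A, H3-3B, H2AZ1, H2AX and H4C16. H2BC12L, H3-5 and MACROH2A2 had no peak in any list. Most of the 14 are transcribed outside S phase as well.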

How the data were processed

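The analysis rested on 6 deposited narrow-peak lists, 1 per library, with samples placed in groups by their titles (3 KO, 3 WT). Per the submitters' processing notes, Trimmomatic, FastQC, MultiQC, Bowtie2 and MACS2 2.1.2 were used with GRCh38. Their settings, and how duplicates, Tn5 offsets and reads with several matches were treated, remain not given in the sources used here. Each peak in the deposited lists carries the peak caller's score (10 times the −log10 q as a whole number), its fold ratio over background, its −log10 p-value and its −log10 q-value. The authors made them, and none was rescaled here. The 1 mitochondrial peak per list was left out. No other column of per-sample values was present or used.

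Peaks sharing 1 bp were merged into regions, and gene ends were windows of 1 kb around both ends in the RefSeq table (GRCh38.p14). Presence calls were counted beside all protein-coding genes or all regions. Ranks were fitted with limma 3.58.1 in R 4.3.3 on normal scores, after the code was tested on simulated data with 4 false calls. For single regions the exact permutation test was two-sided, with 20 labellings of the libraries. The labels do not say that equal replicate numbers mark a shared culture or day, so no pairing was used in the main fit. Same-numbered libraries gave no sign of a shared deviation. The members, gene lists and tests were chosen with earlier results of these data known, and the clusters within chromosome 6 were split at gaps of over 500 kb.

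Genes were named where WT-only, KO-only or past the limma threshold, where highest or lowest by mean list percentile in a family or cluster, where without a peak, and as testis histones or as the 4 regulators NPAT, SLBP, CASP8AP2 and HINFP. Further regions were named for being partly called, near-identical or at an extreme of the rank differences, chosen after their values were seen. Alternatives were a −log10 q of at least 5, a fold of at least 4, equal list length, leaving out each library, merging within 200 bp, windows of 500 bp and 2 kb, the summit inside the window, a rule of 2 of 3 lists, ranks by fold or by mean −log10 p, leaving out the weakest 25% of regions, and a replicate block. Start-based calls were added after the data were seen.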

Additional observations from a re-analysis of the deposited data

How the results depend on the processing

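Of 116 values of 9 results recomputed under the alternatives, 98 kept close to the reported value, 17 moved and 1 reversed (the KO share with lists of equal length). The rule for close was loose: 39 and 41 genes called in all 6 lists counted as close to 49. Counts of 0 that stayed 0 are among the 98. Ranking by fold gave the same 963 higher and 723 lower calls as the main fit, and so adds no separate check. The count of 49 histone genes in all 6 lists and the count of 0 KO-only genes held whenever 1 library was left out. WT-only histone genes ranged from 0 to 2 when 1 library was left out. H2AC16 became WT-only without KO replicate 1, and H2BC8 and H2AC8 without WT replicate 2. A rule of 2 of 3 lists also gave 2 genes, and 19 WT-only regions in place of 8. WT-only regions numbered 5 with a fold of at least 4, 1 with lists of equal length, and 9 to 13 without 1 library. Leaving out a library asks for fewer lists and so loosens these rules. KO-only regions numbered 1 with equal lists and 0 to 1 without 1 library.

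The KO share of WT regions was 88.2% with a fold of at least 4, 105.7% with equal lists, which turns its direction, and 78.1% to 80.4% without 1 library. The median rank difference of the histone regions was 2.12 points with equal lists, 0.448 when ranked by mean −log10 p, and 1.17 to 1.67 without 1 library. In limma, 1 window region, at the far end of H2BC18, passed towards higher ranks without the weakest 25% of regions (adjusted p = 0.0367). Window regions lower in the KO numbered 0 to 2 without 1 library: without KO replicate 3, chr1:228478691-228480039 (adjusted p = 0.0378) and chr6:27738219-27739163 (adjusted p = 0.0439) passed.

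Over all regions, the 963 higher and 723 lower calls became 0 and 0 without WT replicate 1, 2 or 3, 159 and 213 without KO replicate 1, 224 and 286 without KO replicate 2, 604 and 575 without KO replicate 3, and 0 and 0 with the replicate block, under which no window region passed either (0 higher, 0 lower). Deviations of same-numbered libraries correlated at −0.0322, 0.00262 and −0.156. These values give no sign of a shared deviation, but cannot tell whether the samples were handled in pairs. For the other moves the cause was not tested. Without read counts, an uncalled gene end was not detectable at the depth of its list, and is not shown to be closed.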
